A study of Mus musculus with 6 samples.

Results

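Immediate-early activity genes are the transcripts that neurons switch on within minutes of calcium entry or growth factor signaling, before any new protein is needed. The 10 examined here were the rows of the deposited gene table whose symbol equalled Fos, Fosb, Junb, Egr1, Egr2, Egr3, Egr4, Arc, Npas4 or Nr4a1. All 10 were present among the 24421 rows, and all 10 were among the 14852 genes that passed the filter on low counts. The tissue was cortex of C57BL/6 mice, sequenced in bulk, and both groups had undergone MCAO, occlusion of the middle cerebral artery, which causes an ischemic stroke. In a study of intravenous gene therapy, 3 samples came from mice that received GFP (green fluorescent protein), which served as the control, and 3 from mice that received NeuroD1, a proneural transcription factor. The sources used here do not give the vector, its promoter, the time after stroke, age, sex or any pooling of animals. Replicates are numbered but not said to be separate animals, so a p-value here reflects only how far these samples spread, and part of that may be technical.

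These genes work in a relay. Calcium and kinases reach factors that are already present, such as CREB on cyclic AMP response elements (CRE) and SRF on CArG boxes, and those factors start transcription of the immediate-early genes. Fos, Fosb and Junb encode subunits of the dimeric factor AP-1, the 4 Egr genes encode zinc finger factors, Npas4 a neuronal basic helix-loop-helix factor induced by calcium, Nr4a1 an orphan nuclear receptor, and Arc a synaptic protein that removes AMPA receptors. In cortex they are used as marks of recently active neurons, though Npas4 is largely neuronal whereas Fos, Junb, Egr1, Egr2 and Nr4a1 are also induced in glia, vessels and immune cells.

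Sequence before the start sites, where this relay acts, is shown for the 3 genes whose groups did not overlap (Npas4, Nr4a1 and Egr4), for Egr2, which had the highest fold change of the 10, and for Fos, which was level. RefSeq promoter windows (build GRCm38.p6) were used for 7 of the 10 genes, and the 250 bases before the start were searched on both strands. Egr1 was left out by a rule on its chromosome, whether or not it had a window, and Egr3 and Arc had no window. The motif counts below do not cover these genes. Capitals mark the CRE core TGACG, its reverse complement, which reads CGTCA, and, in Egr2, a CArG box. Egr2 has 5 windows in the table, and the 1 at its main GENCODE start was used. For Npas4 only 30 bases around its CRE cores are given, because the RefSeq start lies 345 bases inside the first exon of the GENCODE transcript.
Npas4, chr19:4990129-4990158, minus strand: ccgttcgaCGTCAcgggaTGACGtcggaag
Nr4a1, chr15:101266596-101266845, plus strand: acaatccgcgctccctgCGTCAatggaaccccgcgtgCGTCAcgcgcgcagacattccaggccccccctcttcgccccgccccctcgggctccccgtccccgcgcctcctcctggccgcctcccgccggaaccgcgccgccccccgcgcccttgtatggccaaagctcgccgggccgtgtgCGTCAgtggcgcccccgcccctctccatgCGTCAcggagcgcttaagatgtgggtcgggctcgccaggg
Egr4, chr6:85513590-85513839, minus strand: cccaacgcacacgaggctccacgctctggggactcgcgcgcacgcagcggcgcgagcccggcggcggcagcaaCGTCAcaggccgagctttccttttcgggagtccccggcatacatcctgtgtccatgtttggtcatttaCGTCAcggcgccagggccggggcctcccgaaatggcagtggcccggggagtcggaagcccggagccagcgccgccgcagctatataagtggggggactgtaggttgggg
Egr2, chr10:67537619-67537868, plus strand: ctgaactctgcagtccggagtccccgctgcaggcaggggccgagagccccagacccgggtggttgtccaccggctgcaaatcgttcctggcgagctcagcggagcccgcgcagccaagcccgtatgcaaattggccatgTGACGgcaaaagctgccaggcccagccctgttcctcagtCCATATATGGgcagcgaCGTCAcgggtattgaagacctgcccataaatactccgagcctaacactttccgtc
Fos, chr12:85473640-85473889, plus strand: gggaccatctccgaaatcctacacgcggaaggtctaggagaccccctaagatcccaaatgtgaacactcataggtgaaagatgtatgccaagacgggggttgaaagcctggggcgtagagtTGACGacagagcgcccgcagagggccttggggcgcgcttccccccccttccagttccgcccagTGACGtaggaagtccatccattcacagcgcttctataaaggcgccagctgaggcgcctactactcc
A CRE core was found in 7 of 7 windows and at least 2 in 5 of 7, against 17.8% and 3.9% of all 32851 windows of this length. The full CRE TGACGTCA was found in 0 of 7, against 1.55% of all windows. The AP-1 site TGANTCA was found in 0 of 7, against 6.75%. Nr4a1 held 4, Npas4, Egr4, Egr2 and Fos 2 each, and Fosb and Junb 1 each. A CArG box was found in 1 of 7, that of Egr2, against 1.47% of all windows. Sites more than 250 bases before the start were not searched, so a gene without a match here may have one there. The general E-box CANNTG, the class of site that NeuroD1 and other basic helix-loop-helix factors bind, was found in 4 of 7 windows against 66.2% of all, and not in those of Npas4, Nr4a1 and Egr4. The narrower E-box CAGATG was found in 0 of 7, against 14.4% of all windows, so it did not separate these genes from the others. A match is a description of letters in this window, not a bound site.

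The libraries held 7753101 to 9698795 counts with GFP and 10843273 to 13440244 with NeuroD1, so every NeuroD1 library was the deeper, and 1 count was worth 0.0744 to 0.129 CPM (counts put on a shared scale of library size). Neurod1, which checks the labels, had 29 to 64 counts with GFP and 151 to 644 with NeuroD1. At a Benjamini-Hochberg adjusted p of 0.05, edgeR (quasi-likelihood) called 0% of all tested genes, limma-voom called 0%, and DESeq2 called 5.07% higher and 3.93% lower. The unadjusted edgeR p was under 0.05 for 12.5% of genes higher and 11.5% lower. All levels below are CPM after TMM scaling of library size, and fold changes are NeuroD1 over GFP unless a gene is said to be lower.

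The fitted differences of the immediate-early genes had both signs. Npas4, Nr4a1 and Arc had lower levels in the NeuroD1 cortex (4.25-fold, 2.19-fold and 1.74-fold), Egr2 and Egr3 higher levels (2.73-fold and 2.57-fold), and Fos and Junb nearly equal means in both groups. By edgeR 0 of 10 passed after adjustment over all genes, with adjusted p from 0.136 to 0.935. At an unadjusted edgeR p under 0.05, 2 of 10 were higher and 3 lower, against 12.5% and 11.5% of all tested genes. DESeq2 called 0 higher and 2 lower, Npas4 and Nr4a1, against 5.07% and 3.93% of all genes. The limma-voom fit called 0 members and 0 genes. The groups did not overlap in 3 members, all lower (Npas4, Nr4a1 and Egr4), against 15.3% of all tested genes lower and 14.2% higher. The median log2 fold change of the 10 was -0.13, beside 0.02 over all tested genes, with 5 above 0 and 5 below. In these bulk samples fewer cells of a type and less RNA per cell cannot be told apart.

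**Figure D1:**
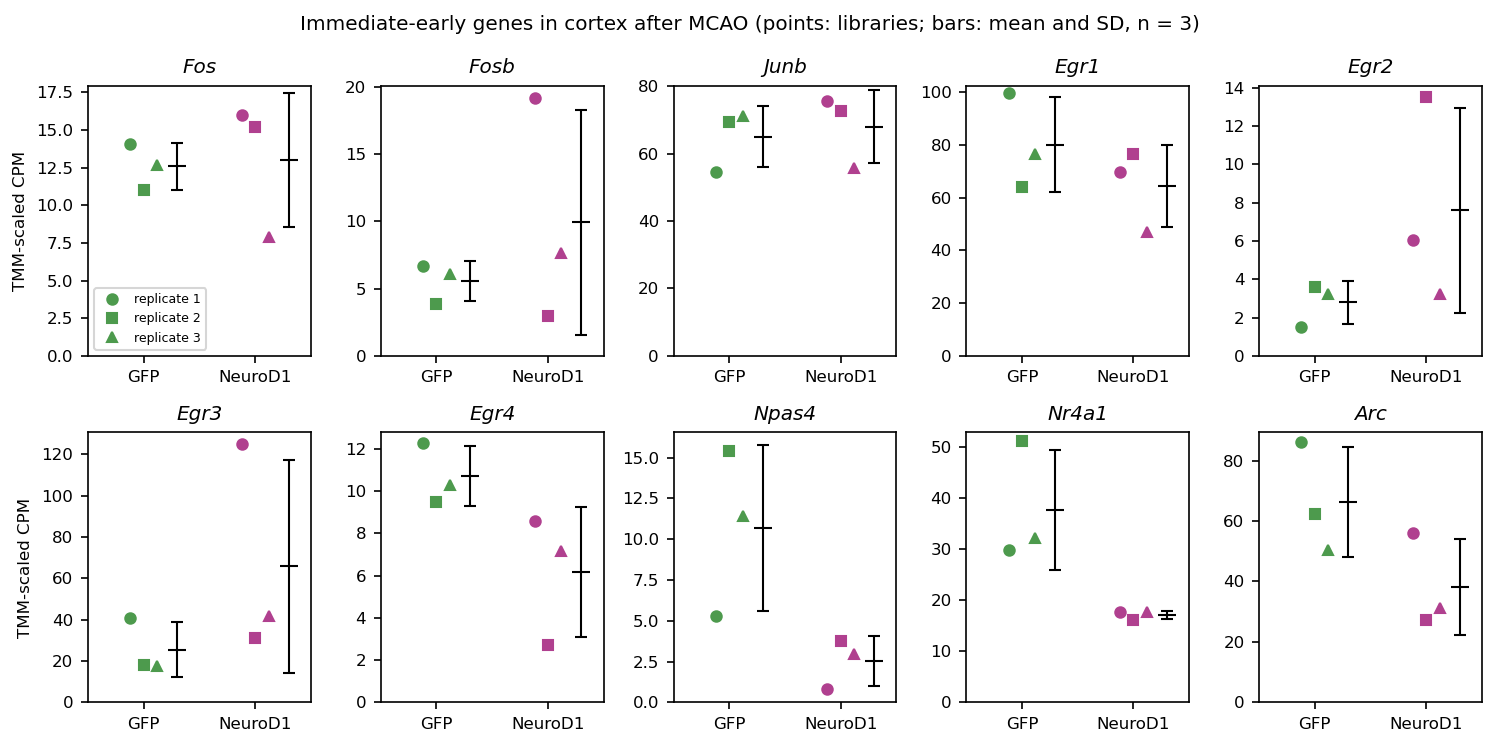
TMM-scaled CPM of each of the 10 genes in the 3 GFP and 3 NeuroD1 libraries, with the mean and SD of each group (n = 3) as bars. The 3 NeuroD1 libraries lie below the 3 GFP libraries for Npas4, Nr4a1 and Egr4, Egr3 is highest in NeuroD1 replicate 1 at 125 CPM, and Egr2 is highest in NeuroD1 replicate 2 at 13.5 CPM.

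Compared per kilobase of annotated exon, the order of abundance with GFP ran from Junb (28.2 CPM per kb), Arc (21.7) and Egr1 (17.9) through Nr4a1 (10.7), Egr3 (5.82), Fos (5.35) and Egr4 (4.98) to Npas4 (2.58), Fosb (0.889) and Egr2 (0.823). With NeuroD1 the order was Junb (29.6 CPM per kb), Egr3 (15), Egr1 (14.4), Arc (12.5), Fos (5.54), Nr4a1 (4.88), Egr4 (2.87), Egr2 (2.24), Fosb (1.59) and Npas4 (0.61). Egr3 was in place 5 with GFP and 2 with NeuroD1, where replicate 1 sets much of its mean, and Npas4 in place 8 and 10. Neighbors such as Egr3, Fos and Egr4 with GFP lie within the spread of Egr3 between its libraries.

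Npas4 (chromosome 19, 4984355 to 4990316, minus strand) encodes a factor that builds inhibitory synapses onto active neurons and is induced by depolarization rather than by growth factors. GFP replicates 1 to 3, in that order here and below, held 52, 115 and 105 Npas4 counts, and the NeuroD1 replicates 11, 39 and 33. In CPM these were 5.27, 15.4 and 11.4 against 0.828, 3.77 and 2.96. Every NeuroD1 library was below every GFP library, and NeuroD1 replicate 1, the deepest library, held the fewest counts. The means were 10.7 ± 5.09 and 2.52 ± 1.52 CPM (SD, n = 3), a log2 fold change of -2.09 (SE 0.58). The adjusted p was 0.139 by edgeR (unadjusted 0.00656), 0.0114 by DESeq2 and 0.149 by limma-voom. DESeq2 no longer called it when any of 3 libraries was left out: GFP replicate 2 (adjusted p = 0.178), GFP replicate 3 (0.101) or NeuroD1 replicate 1 (0.0761), with its log2 fold changes of -1.73, -2.03 and -1.65. Over all genes DESeq2 called 162, 224 and 256 in these fits, against 1374 with all 6 libraries.

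Nr4a1 (chromosome 15, 101254269 to 101274795, plus strand), the nuclear receptor also called Nur77, acts without a known activating ligand and is induced in neurons, endothelium and macrophages. Its levels were 29.7, 51 and 32.2 CPM with GFP and 17.6, 16.2 and 17.6 CPM with NeuroD1. The NeuroD1 libraries were close together (coefficient of variation 4.88%), those of GFP less so (31%), and the groups did not overlap. The log2 fold change of -1.13 (SE 0.25) had the smallest unadjusted edgeR p of the 10 (0.00183), with an adjusted p of 0.136 by edgeR, 0.0072 by DESeq2 and 0.149 by limma-voom. The same 3 omissions ended the DESeq2 call, at adjusted p of 0.134, 0.0585 and 0.0761. With a library left out, the edgeR log2 fold change stayed within -1.3 to -0.85.

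Arc (chromosome 15, 74669083 to 74672570, minus strand), whose mRNA travels to active synapses, was at 86.1, 62.2 and 50.4 CPM with GFP and 56.2, 27.1 and 31.1 CPM with NeuroD1. NeuroD1 replicate 1 lay above GFP replicate 3, so the groups overlapped by these libraries. The log2 fold change was -0.79 (SE 0.32; edgeR adjusted p = 0.189, DESeq2 0.154). It was -1.18 without NeuroD1 replicate 1 (edgeR adjusted p = 0.347), where DESeq2 called Arc lower (adjusted p = 0.0465).

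The Egr factors bind one GC-rich motif with nearly the same zinc fingers, and their transcripts differed in the direction of the fitted change. Egr1, the member most used as an activity marker, was at 99.6, 64 and 76.5 CPM with GFP and 69.7, 76.6 and 46.9 CPM with NeuroD1. Its groups overlapped, and the log2 fold change was -0.31 (SE 0.26; edgeR adjusted p = 0.458). Egr4 (chromosome 6, 85511121 to 85513589, minus strand) was at 12.3, 9.48 and 10.3 CPM with GFP and 8.59, 2.71 and 7.18 CPM with NeuroD1. All 3 NeuroD1 libraries lay below the GFP libraries, with a log2 fold change of -0.79 (SE 0.41; edgeR adjusted p = 0.264, DESeq2 0.255). That difference was -0.43 without NeuroD1 replicate 2, which had the lowest Egr4 level.

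Egr2 (chromosome 10, 67535475 to 67542188, plus strand), also called Krox20 and known for myelination by Schwann cells and for roles in macrophages and lymphocytes, was at 1.52, 3.61 and 3.26 CPM with GFP and 6.03, 13.5 and 3.23 CPM with NeuroD1. NeuroD1 replicates 1 and 2 exceeded every GFP library and replicate 3 did not. The log2 fold change was 1.45 (SE 0.57; edgeR adjusted p = 0.181, DESeq2 0.0893), and 0.75 without NeuroD1 replicate 2. DESeq2 called it higher without NeuroD1 replicate 3 (1.82, adjusted p = 0.0152). Egr3 (chromosome 14, 70077203 to 70082614, plus strand), which muscle spindles need to form, was at 40.8, 18.3 and 17.8 CPM with GFP and 125, 31.1 and 41.6 CPM with NeuroD1. Only GFP replicate 1 reached into the NeuroD1 range, above NeuroD1 replicate 2. Its log2 fold change was 1.36 (SE 0.55; edgeR adjusted p = 0.189, DESeq2 0.0831), and 0.5 without NeuroD1 replicate 1. DESeq2 called it higher without GFP replicate 1 (adjusted p = 0.0123), NeuroD1 replicate 2 (0.0155) or NeuroD1 replicate 3 (0.0382).

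Ratios within a library do not depend on how libraries are scaled. The 9 pairs were chosen after their values were seen and carry no test. Egr3 was 3.33, 1.93 and 1.73 times Egr4 in CPM with GFP and 14.6, 11.5 and 5.79 times with NeuroD1. Egr2 was 0.124, 0.38 and 0.316 times Egr4 with GFP and 0.702, 5 and 0.45 times with NeuroD1. Both ratios were higher in every NeuroD1 library than in any GFP library, while the ratio of Egr4 to Egr1 overlapped (0.123 to 0.148 with GFP, 0.0354 to 0.153 with NeuroD1). The ratios to Egr4 share that gene, so they are not separate observations. Egr3 was 0.41, 0.286 and 0.233 times Egr1 with GFP and 1.79, 0.405 and 0.885 times with NeuroD1, which overlapped through GFP replicate 1 and NeuroD1 replicate 2. The ratio of Egr2 to Egr1 did not overlap (0.0152 to 0.0564 and 0.0688 to 0.177), and that of Egr2 to Egr3 did (0.0372 to 0.197 and 0.0482 to 0.436). Against Fos, the lower genes gave mixed results. Arc was 6.12, 5.68 and 3.97 times Fos with GFP and 3.52, 1.78 and 3.94 times with NeuroD1, without overlap, though NeuroD1 replicate 3 lies just under GFP replicate 3. The ratios to Fos overlapped for Npas4 (0.374 to 1.4 and 0.0519 to 0.375) and for Nr4a1 (2.11 to 4.66 and 1.06 to 2.23).

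**Figure D2:**
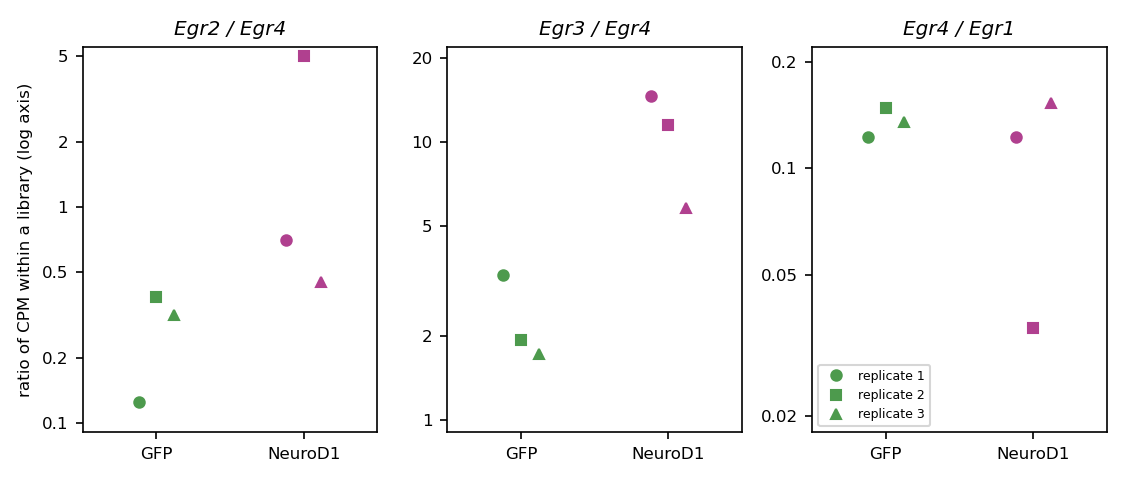
Ratio of CPM between Egr genes within each library, on log axes, for GFP and NeuroD1. The ratios of Egr2 and of Egr3 to Egr4 are higher in all 3 NeuroD1 libraries than in the GFP libraries, whereas the ratio of Egr4 to Egr1 overlaps, with NeuroD1 replicate 2 lowest at 0.0354.

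Among the AP-1 subunits, Fos (chromosome 12, 85473890 to 85477273, plus strand) was at 14.1, 11 and 12.7 CPM with GFP and 16, 15.2 and 7.9 CPM with NeuroD1. Its NeuroD1 libraries lay on both sides of the GFP range, and the log2 fold change was 0.05 (SE 0.31; edgeR adjusted p = 0.935). Junb (chromosome 8, 84974484 to 84978718, minus strand), the AP-1 partner that often restrains Jun, was at 54.6, 69.2 and 71.2 CPM with GFP and 75.7, 72.7 and 55.7 CPM with NeuroD1, a log2 fold change of 0.07 (SE 0.21; edgeR adjusted p = 0.861). The annotated Junb gene overlaps Prdx2 on the opposite strand, and with no stated strand setting their reads cannot be told apart. Fosb (chromosome 7, 19302696 to 19310051, minus strand), whose truncated product builds up with repeated stimulation, was at 6.68, 3.87 and 6.08 CPM with GFP and 19.2, 3 and 7.63 CPM with NeuroD1. The log2 fold change of Fosb was 0.84 (SE 0.6; edgeR adjusted p = 0.396) and -0.06 without NeuroD1 replicate 1, so that library sets the difference. The counts are per gene and do not separate Fosb from its truncated form.

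Single libraries carried opposite extremes. NeuroD1 replicate 1 held the highest Fosb, Fos, Junb and Egr3 levels of all 6 libraries and the lowest Npas4 level. NeuroD1 replicate 2 held the highest Egr2 level and the lowest Egr4, Nr4a1, Arc and Fosb levels. NeuroD1 replicate 3 held the lowest Fos and Egr1 levels. The coefficient of variation was larger with NeuroD1 than with GFP for 9 of the 10 genes, Nr4a1 being the exception. It was highest for Fosb (83.9%), Egr3 (78.2%) and Egr2 (70.2%) with NeuroD1. The share over all genes was not computed, so the count of 9 has no background and may not be particular to these genes.

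**Figure D3:**
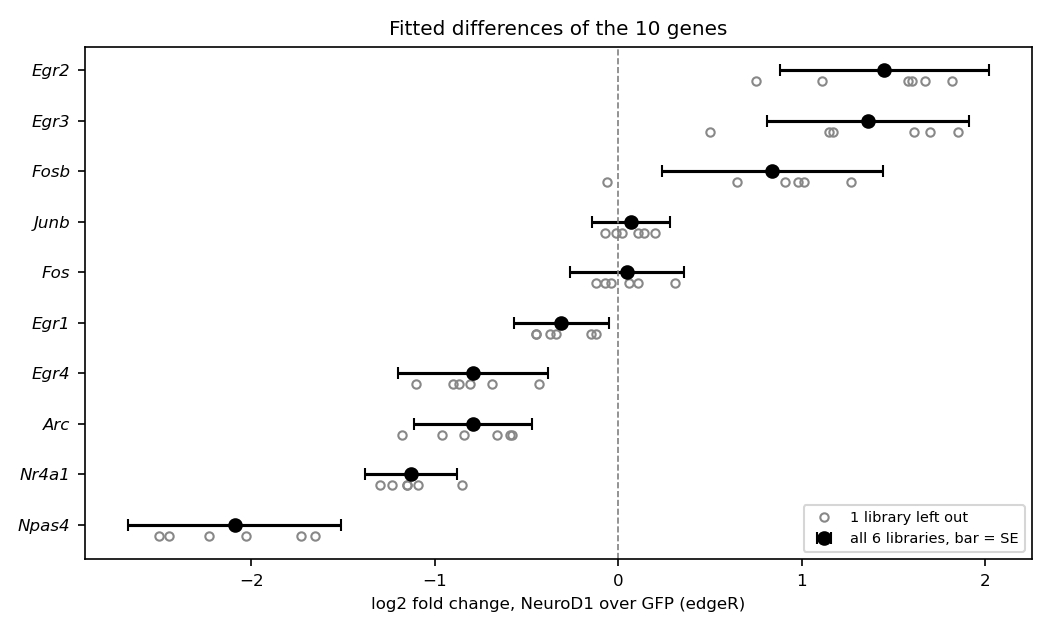
Log2 fold change of NeuroD1 over GFP for the 10 genes by edgeR, with its SE as a bar, and the same fit with 1 library left out (open circles, 6 per gene). All circles lie below 0 for Npas4, Nr4a1, Arc, Egr4 and Egr1 and above 0 for Egr2 and Egr3, while those of Fos, Junb and Fosb fall on both sides.

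Markers of cell types were summed in each library. The summed level of 10 cortical excitatory neuron markers was 2990 to 3630 CPM with GFP and 1250 to 3930 CPM with NeuroD1, lowest in NeuroD1 replicate 2, and 0 of 10 markers were at 0 counts throughout. At an unadjusted edgeR p under 0.05, 0 were higher and 2 lower, Nrgn and Fezf2, and the median log2 fold change was 0.01. Most of the summed level came from Nrgn (1930 to 2040 CPM with GFP, 675 to 1600 with NeuroD1) and Slc17a7 (804 to 1220 and 369 to 1860 CPM). For 10 general neuron markers the sums were 2590 to 5030 and 1930 to 5290 CPM, with 0 higher and 0 lower. The groups thus overlapped in both neuronal sums. Library sizes were then set to the geometric mean of the 10 excitatory markers rather than to their sum. That mean was 101, 57 and 79.4 CPM with GFP and 91, 39.4 and 100 CPM with NeuroD1. This scaling moved the median of all genes to 0.26. The log2 fold changes became -1.81 for Npas4, -1.01 for Nr4a1, -0.65 for Arc, -0.8 for Egr4, 1.47 for Egr3 and 1.92 for Egr2. Their unadjusted edgeR p, in that order, was 0.0422, 0.11, 0.229, 0.178, 0.0203 and 0.0373, with adjusted p from 0.527 to 0.726. On this scale the groups did not overlap for Egr3 and Egr4, and they overlapped for Npas4 and Nr4a1.

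Vessel, myeloid and fibroblast markers differed between the groups too. The sum of 7 endothelial markers was 384, 543 and 371 CPM with GFP and 173, 238 and 296 CPM with NeuroD1, with 4 of 7 lower (Tek, Pecam1, Cldn5 and Flt1) and 0 higher at an unadjusted edgeR p under 0.05. These sums did not overlap between groups and were highest in GFP replicate 2, as were the Nr4a1 and Npas4 levels and the sum of 6 oligodendrocyte markers (10500, 20200 and 11900 CPM with GFP, 6800, 8070 and 9170 CPM with NeuroD1). The sum of 9 markers of infiltrating myeloid cells was 827, 2160 and 2100 CPM with GFP and 5430, 8150 and 2600 CPM with NeuroD1, with 6 of the 8 tested higher and 0 lower. Lyz2 alone made up most of it, at 773, 2120 and 2020 CPM with GFP and 5030, 7590 and 2420 CPM with NeuroD1. The sum of 7 fibroblast markers was 762, 726 and 1510 against 3470, 5890 and 1400 CPM, with 7 of 7 higher. Both sums were highest in NeuroD1 replicate 2 and then replicate 1, as was Egr2. The sum of 6 microglia markers had its highest values in the same order (2950, 2750 and 2410 CPM with GFP, 4040, 4320 and 2910 CPM with NeuroD1). Of these lists 0 markers were at 0 counts throughout. The part of these cell types in the Nr4a1, Npas4 and Egr2 results was not tested. Markers of striatum, a neighboring region, summed to 125 to 173 CPM with GFP and 71.6 to 181 CPM with NeuroD1, with 0 of 6 higher or lower.

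**Figure D4:**
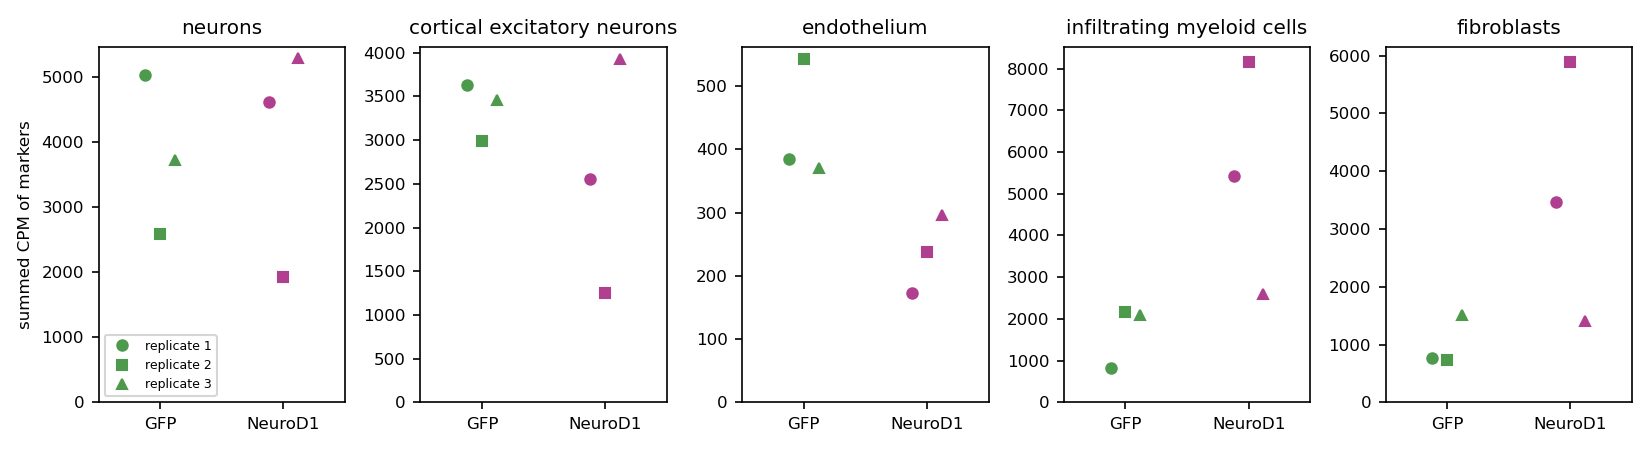
Summed TMM-scaled CPM of marker genes for 5 cell types in each GFP and NeuroD1 library. Endothelial sums are lower and myeloid sums higher in all 3 NeuroD1 libraries, the neuronal sums overlap, and NeuroD1 replicate 2 has the lowest neuronal and the highest myeloid and fibroblast sums. Lyz2 makes up most of each myeloid sum.

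Further genes of the pathway came from 7 lists holding 104 genes, of which 103 were tested. By edgeR 0 passed after adjustment, while at an unadjusted p under 0.05 19 (18.4%) were higher and 4 (3.88%) lower, against 12.5% and 11.5% of all genes. DESeq2 called 7 higher and 0 lower, beside 5.07% and 3.93% of all genes, so the count of higher genes is near the background. The median over the 103 was 0.25, beside 0.02 over all genes.

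Upstream of the relay, 4 of 17 transcription factors and coactivators were higher and 1 lower at an unadjusted p under 0.05, with a median log2 fold change of 0.39. The calcium-responsive factor Mef2d was at 75.5, 43.3 and 45.3 CPM with GFP and 131, 101 and 89.5 CPM with NeuroD1 (log2 fold change 0.97, SE 0.28; edgeR adjusted p = 0.139, DESeq2 0.0264). The groups did not overlap for Mef2d or for its relative Mef2a (0.72, SE 0.26), and they did for the acetyltransferase gene Ep300 (0.73, SE 0.27). The other 2 of these 5 genes, outside the naming rule, were the repressor Rest (1.09, SE 0.42) and the CREB coactivator Crtc1 (-0.6, SE 0.26). Of 21 kinases, phosphatases and channels 2 were higher and 0 lower, with a median of 0.11. Rps6ka2, a ribosomal S6 kinase of the ERK pathway, was at 24.5, 19.2 and 25.3 against 58.8, 35.8 and 52.2 CPM (1.09, SE 0.24; edgeR adjusted p = 0.136, DESeq2 0.0066), and its relative Rps6ka3 had 0.68 (SE 0.23). The calcium channel gene Cacna1d had -0.47 (SE 0.21).

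Beside the members, other AP-1 and Atf factors had 3 of 9 tested genes higher and 0 lower (median 0.15). Jun, the main partner of Fos, was at 90, 74.8 and 80.3 CPM with GFP and 117, 111 and 115 CPM with NeuroD1, and these groups did not overlap (log2 fold change 0.49, SE 0.18; edgeR adjusted p = 0.171). The stress factor Atf3 had 1.04 (SE 0.4) and the large Maf factor Maf, a macrophage gene as well, 1.24 (SE 0.41; DESeq2 adjusted p = 0.0418). Of 15 other rapid transcription factors and regulators 2 were higher and 1 lower (median 0.09). Klf10, a TGF-beta-induced factor, was 1.98-fold higher (DESeq2 adjusted p = 0.0311) and Klf6 1.59-fold higher, both without overlap. Klf2, a flow-induced factor of endothelium, was 1.95-fold lower, at 26.2, 38.6 and 28.9 against 9.72, 22.4 and 15.9 CPM (edgeR adjusted p = 0.15). The relatives of Nr4a1, Nr4a2 and Nr4a3, had 0.45 (SE 0.76) and -0.3 (SE 0.35), both with overlapping groups, and were chosen after their values were seen.

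Feedback inhibitors had 2 of 15 higher and 1 lower (median 0.05). The ERK phosphatase genes Dusp4 and Dusp6 were 2.85-fold and 1.97-fold higher (edgeR adjusted p = 0.141 and 0.165; DESeq2 0.0476 and 0.071), and the stress gene Gadd45g 1.91-fold lower. Rapid effectors had 2 of 11 higher and 1 lower (median 0.2). Rgs2, a brake on G protein signaling, was at 60.3, 67.9 and 64.8 CPM with GFP and 117, 119 and 84.1 CPM with NeuroD1 (DESeq2 adjusted p = 0.0255), the prostaglandin synthase gene Ptgs2 was 2.07-fold higher and the small GTPase gene Arl4d 2.1-fold lower.

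Delayed activity-regulated genes, which follow the immediate-early factors, had 4 of 15 higher and 0 lower, with 14 of 15 above 0. Their median was 0.49, beside 0.02 over all genes. The groups did not overlap in 1 of 15, Pim1, against 14.2% of all tested genes higher, and the share of all genes above 0 was not computed. The kinase gene Pim1 was at 3.44, 4.67 and 3.26 against 7.15, 15 and 5.74 CPM (DESeq2 adjusted p = 0.0463). The secretory granule gene Scg2 was 1.81-fold higher and the opioid precursor Penk 3.28-fold higher, the latter resting on 151 CPM in NeuroD1 replicate 3 against 14.8 to 30.9 CPM elsewhere. Nptx2, a synaptic pentraxin and the remaining gene of the 4, and the growth factor Bdnf, both chosen after their values were seen, were higher in NeuroD1 replicates 1 and 3 and lower in replicate 2 than in any GFP library. Bdnf was at 7.49, 5.21 and 5 against 17.4, 3.77 and 11.5 CPM, and Nptx2 at 24.4, 22 and 20.4 against 166, 7.64 and 73 CPM.

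**Figure D5:**
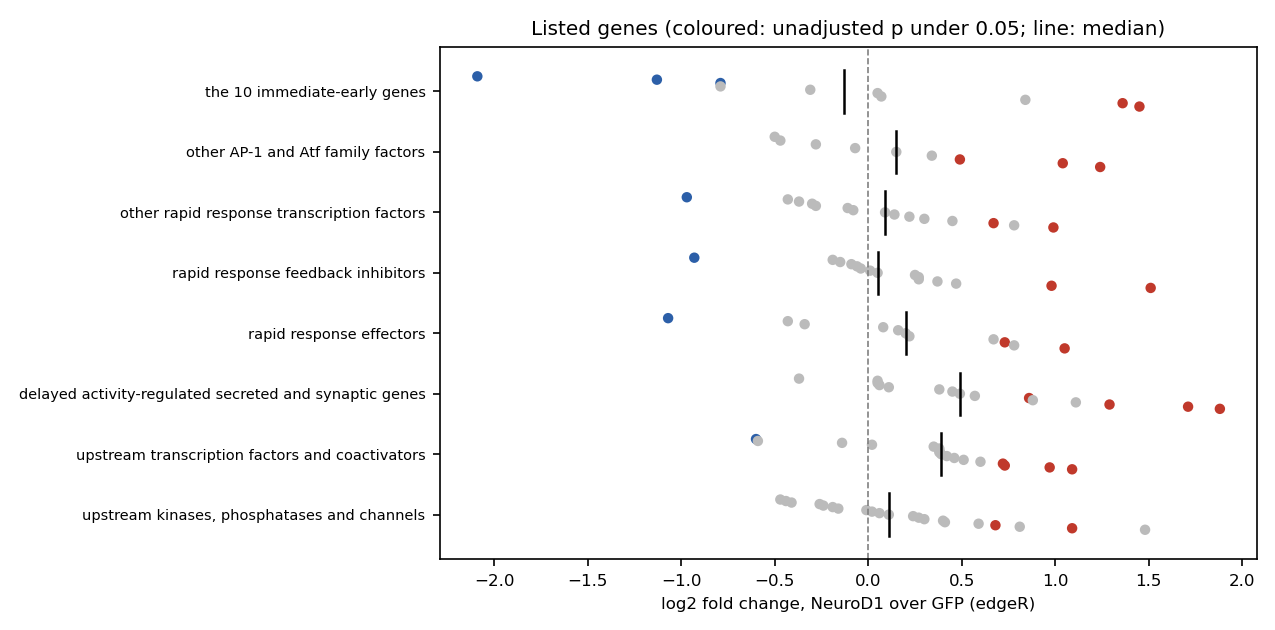
Log2 fold change of NeuroD1 over GFP by edgeR for the 10 immediate-early genes and the tested genes of 7 related lists, colored where the unadjusted p was under 0.05 (red higher, blue lower), with the list median as a line. The immediate-early genes reach from -2.09 to 1.45, and the delayed genes lie mostly above 0 with a median of 0.49.

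The pattern of the members' mean standardized log2 CPM over the 6 libraries ran from 0.4 in NeuroD1 replicate 1 to -0.67 in NeuroD1 replicate 3. Among 12549 other genes with a mean of at least 5 CPM, the 5 most like it by Pearson correlation over the 6 libraries were Mxd1 (0.988), Acat1 (0.972), Dip2a (0.966), Mettl13 (0.947) and Psme4 (0.916). Their log2 fold changes lay between -0.23 and -0.06. The members' fitted differences had both signs, so this mean is no summary of each.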

How the data were processed

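The authors deposited unnormalized read counts by gene symbol. Per the file headers, featureCounts made them against a gene annotation for mm10, while the submitters' processing notes name GRCm38, HISAT2 2.0.1 and DESeq2 1.16.1. The sources used here do not state a strand setting or how multi-mapping reads were handled. Genes were kept by filterByExpr (minimum count 10, minimum total 15), scaled by TMM and tested with edgeR 4.0.16 (quasi-likelihood F-test, two-sided, treatment only) in R 4.3.3, with Benjamini-Hochberg adjustment over all tested genes at 0.05. SEs were derived from the F statistic. Alternatives were DESeq2 1.42.0, limma-voom (limma 3.58.1), other scalings and filters, a replicate block, a threshold of 0.1 and leaving out libraries. Fits were tested on simulated data, where edgeR made about as many false calls as its threshold allows and DESeq2 more. The simulated counts were drawn with the spread that edgeR had fitted, independently for each gene. They therefore cannot show which tool is nearer the truth in these data. Libraries of 1 group differed by far more than sampling noise (chi-square 33.8 to 126 per gene), so none was treated as a duplicate. Gene positions and exon lengths come from GENCODE M21 (GRCm38). The members and gene lists were chosen with earlier results of these data known. All 10 members were named, and of each pathway list the 3 genes with the smallest edgeR p. Some marker lists had no counts given with the results, and theirs at an unadjusted edgeR p under 0.05 follow. Interneurons had 1 higher (Gad2) and 1 lower (Pvalb) of 7, and astrocytes 2 lower of 7 (Aldoc, Gfap). Oligodendrocytes had 3 lower of 6 (Mbp, Mog, Mobp) and microglia 0 of 6, their sums being given above. Pericytes and smooth muscle had 5 lower of 7 (Kcnj8, Higd1b, Acta2, Myh11, Tagln), and choroid plexus 3 lower of 4 (Ttr, Folr1, Clic6).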

Additional observations from a re-analysis of the deposited data

How the results depend on the processing

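Depth limits Npas4 and Egr2 most, with as few as 11 and 15 counts in a library. The directions of Npas4, Nr4a1, Arc, Egr4, Egr2 and Egr3 held in all 8 other fits and all 6 left-out libraries by edgeR. Fos was -0.01 with limma-voom, -0.04 with upper quartile scaling and 0 with the replicate block, Junb was -0.03 with upper quartile scaling, and Egr1 was 0.07 when scaled to excitatory neuron markers, an alternative added after seeing the data, as were the DESeq2 fits without a library. With 1 library left out, log2 fold changes by edgeR ranged from -0.12 to 0.31 for Fos, -0.06 to 1.27 for Fosb and -0.07 to 0.2 for Junb, and by DESeq2 the reversed values were -0.12, -0.05 and -0.03 for Fos, -0.05 for Fosb, and -0.04 and 0 for Junb. The cause was not tested. The median of the members was 0.19 scaled to excitatory markers and -0.25 to 0.04 without a library. DESeq2 called 1374 genes, 7 of the pathway lists and 2 members, and with a library left out 0 to 4 members: 0 without GFP replicate 2 or 3, 3 without GFP replicate 1, and 1, 3 and 4 without NeuroD1 replicate 1, 2 and 3. Without a library edgeR called 0 to 1 genes (1 without NeuroD1 replicate 2). The members without overlap then numbered 3 to 6 (5 without NeuroD1 replicate 2, 6 without replicate 3). Fewer samples overlap less easily, and the share over all genes was not computed for these fits, so these counts have no background. At a threshold of 0.1 edgeR called 0 genes. With the replicate number as a block edgeR called 479 genes, 2 pathway genes and 2 members, Egr3 (1.21, adjusted p = 0.0455) and Npas4 (-2.16, adjusted p = 0.0447). The numbers are not said to pair animals. Deviations of same-numbered libraries correlated at 0.539, 0.371 and 0.039 over genes, and GFP replicate 3 correlated best with NeuroD1 replicate 2 (0.129), so the block was not used for the main results.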
